A study of Mus musculus with 2 samples.

Results

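The rodent miRNA families miR-297, miR-466, miR-467 and miR-669 were examined in exosome RNA of a mouse lung tumour line. Every mouse miRNA name on the array that starts with one of these 4 family numbers, with no further digit, was taken. This gave 61 of the 1881 mouse miRNA names, 3 of them in miR-297, 23 in miR-466, 12 in miR-467 and 23 in miR-669. Of the 61 names, 25 end in 5p, 26 end in 3p, for the arm of the hairpin they come from, and 10 carry no arm. The rule uses names alone, though the families were picked with earlier results of these data known.

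Exosomes are small membrane vesicles that cells release, and these came from Lewis lung carcinoma (LLC) cells, an established line of the mouse. The cells stood for 24 h in medium without serum to which cisplatin, a DNA-damaging platinum compound, had been added at 5 µM, and the vesicles were then collected from the supernatant. Both samples, from independent experiments, belong to this 1 group, and each was read on its own one-colour array. No untreated cells were analysed here, so the values describe what these vesicles gave on the array and how far the arrays differed, not an effect of the drug. No p-value was computed, and the 2 arrays limit the precision of every value.

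Most hairpins of these families lie in tandem in an intron of Sfmbt2, an imprinted gene for a Polycomb protein that is expressed from the paternal copy. The cluster is confined to rodents and is best known from the placenta, where it is needed for normal growth, and from embryonic stem cells. Each hairpin is cut into a 5p and a 3p strand, and in these families the strands are built largely from simple repeats. A miRNA recognises its mRNA targets mainly through the seed, bases 2 to 8 of the mature strand.

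RefSeq (GRCm38.p6) gave a locus for 60 of the 61 names, miR-466a-5p being the exception. For 49 names every matched hairpin lies within the span of Sfmbt2, for 8 names none does, and for 3 names (miR-297a-3p, miR-466f-5p and miR-466f-3p) there are copies in both places. The 8 names from elsewhere are miR-466i-5p, miR-466i-3p, miR-466j, miR-466k, miR-466q, miR-467f, miR-467g and miR-669n.

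Mature sequences were at hand for 7 members, all from hairpins outside Sfmbt2. They are shown because they fall into strands rich in U and G and strands rich in A and C, a contrast to which the values below return. Capitals mark the seed, and the sequences are RefSeq's on GRCm38.p6. The first 3 hold the letters GUGUGU.
miR-669n: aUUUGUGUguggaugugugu
miR-466j: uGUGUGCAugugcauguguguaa
miR-466k: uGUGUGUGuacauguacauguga
The other 4 hold ACACAC, the reverse complement of GUGUGU.
miR-466i-3p: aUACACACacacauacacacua
miR-466q: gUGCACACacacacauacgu
miR-467f: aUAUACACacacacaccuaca
miR-467g: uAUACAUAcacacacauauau

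miR-669n lies at chr3:115979905-115979924 on the plus strand, in the 5p side of its hairpin and within the span of Slc30a7, a zinc transporter gene. miR-466j lies at chr10:60960802-60960824 on the plus strand, in the 3p side of its hairpin and within no other RefSeq gene. miR-466k lies at chr3:85467396-85467418 on the plus strand, in the 5p side, within Gm31419. miR-466i-3p lies at chr13:17747552-17747573 on the plus strand within Cdk13, a kinase gene that acts in transcription. miR-466q lies at chr3:28419988-28420007 on the plus strand, in the 3p side, within Tnik, a kinase gene of the Wnt pathway. miR-467f lies at chr11:69635419-69635439 on the minus strand, in the 3p side, within Fxr2, which encodes an RNA-binding protein. miR-467g lies at chr5:34732872-34732892 on the minus strand, in the 3p side, within Grk4, a receptor kinase gene. The strand of these genes, and whether the hairpin lies in an exon or an intron, was not looked up.

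The 7 members have 7 distinct seeds, and none shares its seed with another of the 1608 array names whose sequence was at hand. Over the whole strand the A and C-rich members overlap. miR-466i-3p and miR-466q share a run of 14 bases, miR-466i-3p and miR-467f one of 13, and miR-466q and miR-467f one of 11. Any pair of the U and G-rich members shares 8 bases. Between the groups the longest shared run is 5 bases, for miR-466j with miR-466q and for miR-466k with miR-467g. Whether probes pick up related strands was not tested.

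The members were represented by 162 probes with 1830 spots on each array. No spot was saturated, and 23 member spots on array 1 and 44 on array 2 were marked as population outliers by the scanner software and left out. A miRNA counts as detected on an array when at least 1 of its probes has a total signal over 3 times its error. Signals are means of log2 intensity over spots and then probes, and they are unscaled, as each array gave them, unless a sentence says otherwise. The mean of the negative controls plus 3 SD corresponds to 2.89 on array 1 and 3.21 on array 2. This limit was taken from linear intensities. A mean of log2 intensity lies below the log2 of the mean intensity, so the limit is strict for the signals set beside it. Probes differ in brightness, so the amounts of different miRNAs were not compared. The 4 detected spike-in controls were 0.06 to 0.17 log2 units brighter on array 1, and the 201 miRNAs detected on both arrays were brighter there by a median of 0.78. Embryonic stem cell miRNAs, from cells in which the Sfmbt2 cluster is active, were detected for 1 of 9 listed names on both arrays (miR-290a-3p), beside 10.7% of all miRNAs. The log2 summed level of the 9 names was 4.90 on array 1 and 4.67 on array 2. The list is partial: miR-290b-3p, miR-291b-5p and miR-292b-3p, with numbers of the list but outside it, were also detected on both arrays. Among stromal miRNAs 3 of 5 names were detected on both arrays, with a log2 summed level of 7.43 and 5.56. The 3 were miR-199a-3p, miR-199a-5p and miR-214-3p. On neither array were miR-143-3p (log2 signals of 0.33 and 0.36) and miR-145a-5p (0.24 and 0.16) detected, so the list went both ways. Red cell miRNAs were detected on both arrays for 0 of 3 names (3.12 and 2.41) and leukocyte miRNAs for 0 of 4 (4.81 and 3.57). Of the leukocyte names, miR-142a-3p (log2 signals of 4.21 and 1.95) passed on array 1 alone, as 12 members did. The part of other cells in the members' values was not tested.

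Both arrays detected 11 of the 61 members (18.0%), where 10.7% of all 1881 miRNAs passed. Array 1 detected another 12, which makes 23 (37.7%, against 16.6% of all miRNAs), and 38 members were detected on neither array. There was no member that array 2 alone detected. This is no trait of the members, since of the 202 miRNAs that array 2 detected, 201 were detected on both arrays. By family, detection on both arrays was 6 of 23 for miR-466, 4 of 23 for miR-669, 1 of 12 for miR-467 and 0 of 3 for miR-297. On array 1 it was 12 for miR-466, 8 for miR-669, 2 for miR-467 and 1 for miR-297. With every probe of a miRNA required to pass on both arrays, 6 members were left (9.84%, against 6.17% of all miRNAs). With the majority of spots well above background 4 were left (6.56%, against 4.63%): miR-466i-5p, miR-669n, miR-466h-3p and miR-467f. With a probe over 6 times its error, miR-466i-5p and miR-669n were left, 3.28% of the members against 4.52% of all miRNAs, so at that setting the members' share was the lower.

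**Figure D1:**
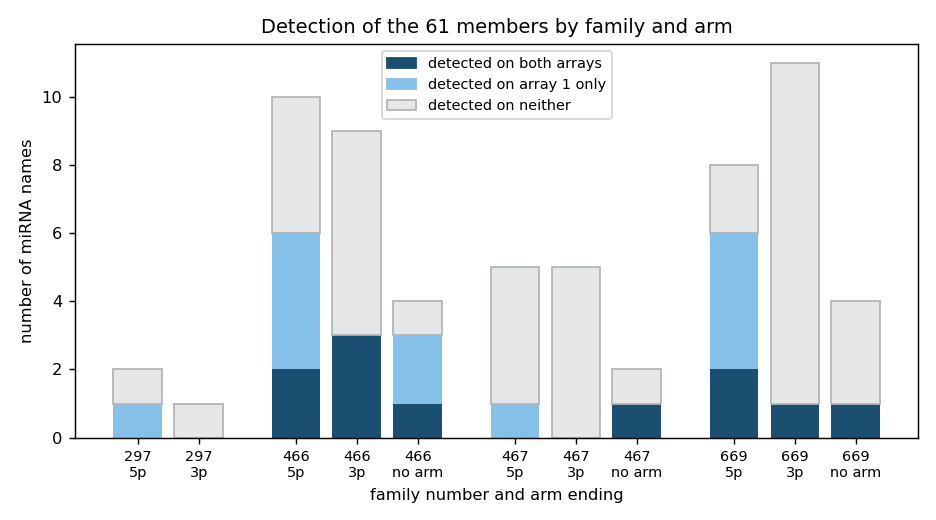
Number of miRNA names (vertical axis) by family number and arm ending (horizontal axis), with bar segments for detection on both arrays, on array 1 only and on neither. The light blue segments, names detected on array 1 only, appear among names ending in 5p or without an arm and in no 3p bar.

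The arms differed in how detection depended on the array. Of the 25 names ending in 5p, 4 (16%) were detected on both arrays, beside 9.81% of all 5p names, and 14 (56%) were detected on array 1, beside 16.9%. Of the 26 names ending in 3p, 4 (15.4%) were detected on both arrays, beside 9.43% of all 3p names, and the same 4 were detected on array 1, beside 14.1%. Of the 10 names without an arm, 3 were detected on both arrays, beside 15.9% of such names, and 5 on array 1, beside 21.8%.

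By place in the genome, 5 of the 8 names from outside Sfmbt2 (62.5%) were detected on both arrays and 6 on array 1. Of the 49 names with all hairpins inside Sfmbt2, 5 (10.2%) were detected on both arrays and 15 (30.6%) on array 1. The share on both arrays is near the 10.7% of all miRNAs, and that on array 1 stands beside 16.6%. The 5 from inside Sfmbt2 were miR-466h-5p, miR-466h-3p, miR-669e-5p, miR-669l-5p and miR-669p-3p. The 5 from outside were miR-466i-5p, miR-466i-3p, miR-466q, miR-467f and miR-669n. miR-466f-3p, with copies in both places, was the remaining one. No test was made of the difference between the places, and names of 1 hairpin or of near copies are not independent.

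miR-466i-5p, from a hairpin within the span of Cdk13, had a mean intensity of 1204 ± 140 on array 1 and 411 ± 54.7 on array 2 (SD over 30 spots on each array). Its log2 signals were 10.22 and 8.67, so it was 2.94-fold brighter on array 1. Both of its probes passed on both arrays, and all 30 spots were well above background on each.

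miR-669n, whose longest run of alternating U and G is 8 bases, had a mean intensity of 124.5 ± 12.7 on array 1 and 34.4 ± 6.23 on array 2 (SD over 30 spots). Its log2 signals were 6.95 and 5.08, a 3.66-fold difference. All 30 spots were well above background on each array. Spots of an array are not replicates, so their SD describes the array and not the spread between samples.

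Another 3 members detected on both arrays were brighter on array 1, all 5p strands of hairpins in Sfmbt2. miR-669l-5p, measured by 1 probe, had a log2 signal of 5.15 on array 1 against 3.34 on array 2, and 5 of its 30 spots were well above background on array 2. miR-669e-5p had 4.68 and 2.76, and miR-466h-5p, known for a role in apoptosis of cultured cells, had 4.26 and 2.06. On array 2 miR-669e-5p and miR-466h-5p lay below the negative-control limit of 3.21, and each was carried there by 1 probe, at 3.95 and 3.28 times its error. These 3 were close to the detection threshold on array 2 and clear of it on array 1.

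The remaining 6 members detected on both arrays were slightly brighter on array 2, although 4 of the 6 were so after normexp background correction and 5 of the 6 by their brightest probe. miR-467f had a log2 signal of 3.92 on array 1 against 4.29 on array 2, miR-466h-3p had 4.14 and 4.31, and miR-669p-3p had 3.62 and 3.83. All probes of these 3 passed on both arrays. miR-466i-3p had 3.07 on array 1 and 3.26 on array 2, miR-466q had 2.58 and 3.27, and miR-466f-3p had 2.56 and 2.62. The last 3 were dim and passed through part of their probes. As means of log2 intensity, miR-466f-3p lay below the negative-control limit on both arrays and miR-466q on array 1. By mean linear intensity on array 1, miR-466f-3p (8.43) and miR-466q (8.81) lay above that limit. All 6 are 3p strands: 4 by name, and miR-467f and miR-466q by their place in the 3p side of the hairpin.

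The 11 members thus fell apart in their difference between the arrays, array 1 minus array 2. The 5 that were brighter on array 1 differed by 1.55 to 2.20 log2 units and the other 6 by -0.69 to -0.06, with no member between. The split was drawn from these values and is a description. Among the 190 other miRNAs detected on both arrays, 121 (63.7%) lay in that empty interval. Over 2-fold brighter on array 1 were 5 of the 11 members and 42.3% of all detected miRNAs. None of the 11 was over 2-fold brighter on array 2, beside 0.498% of all detected miRNAs. Brighter on array 2 by any amount were 6 of the 11 members and 12.9% of all detected miRNAs. The median difference over all 11 members, -0.06, describes neither set. By arm, the median was 1.86 over the 4 members ending in 5p and -0.18 over the 4 ending in 3p. Other miRNAs showed a gap in the same direction, with medians of 1.23 over 72 names ending in 5p and 0.32 over 70 ending in 3p. An arm gap was thus also present outside these families.

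**Figure D2:**
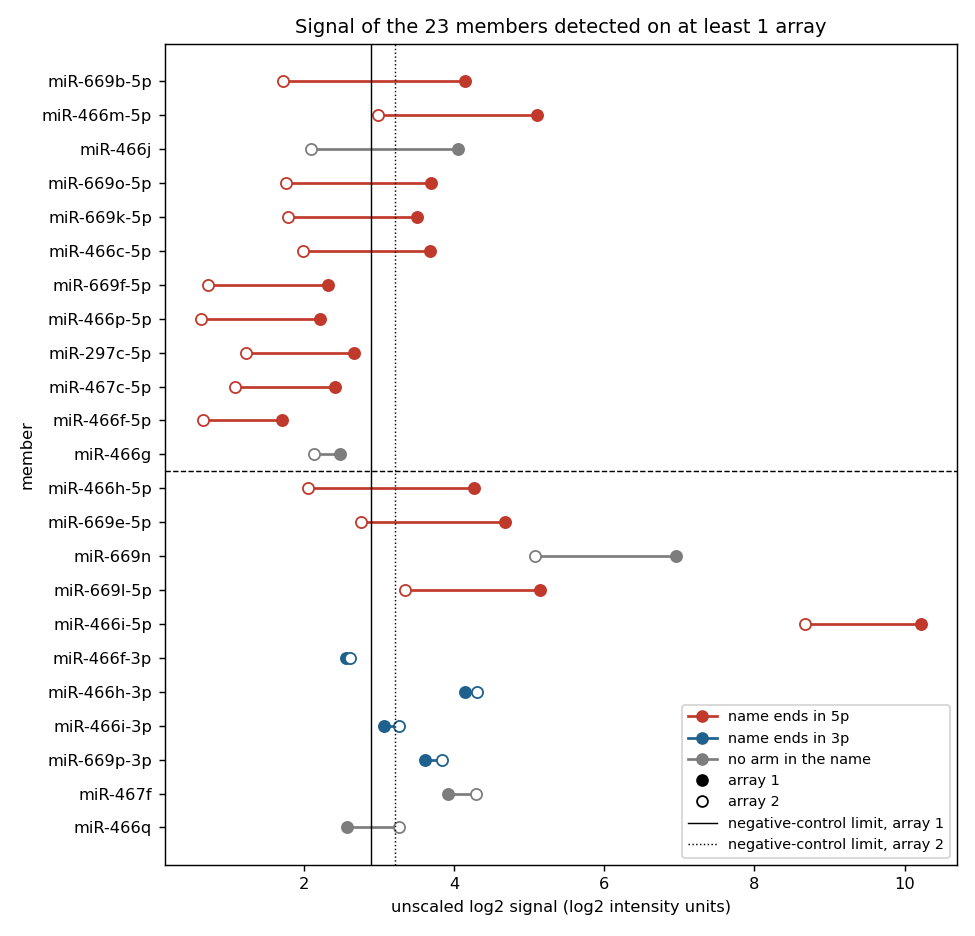
Unscaled log2 signal (horizontal axis) of the 23 members detected on at least 1 array (vertical axis), with filled points for array 1, open points for array 2, colour for the arm in the name and vertical lines at the negative-control limits. The dashed line separates the 11 members detected on both arrays, below it, from the 12 detected on array 1 only; the 6 lowest members have their open point at or to the right of the filled one.

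Single probes mostly followed the split, which was drawn from their own means, so they describe it and are no further support. All 11 probes of the 5 members brighter on array 1 were brighter there, by 1.54 to 2.82 log2 units. Of the 16 probes of the other 6 members, 14 were brighter on array 2, and the range was -0.97 to 0.95. Among the 12 of those probes that passed 3 times their error on an array, the range was -0.57 to 0.06. The probes at 0.95 and 0.06 were among the 4 for miR-466f-3p, and the one at 0.95 passed on neither array. Probes of a miRNA share the sample and much of their target, so they are not replicates.

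**Figure D3:**
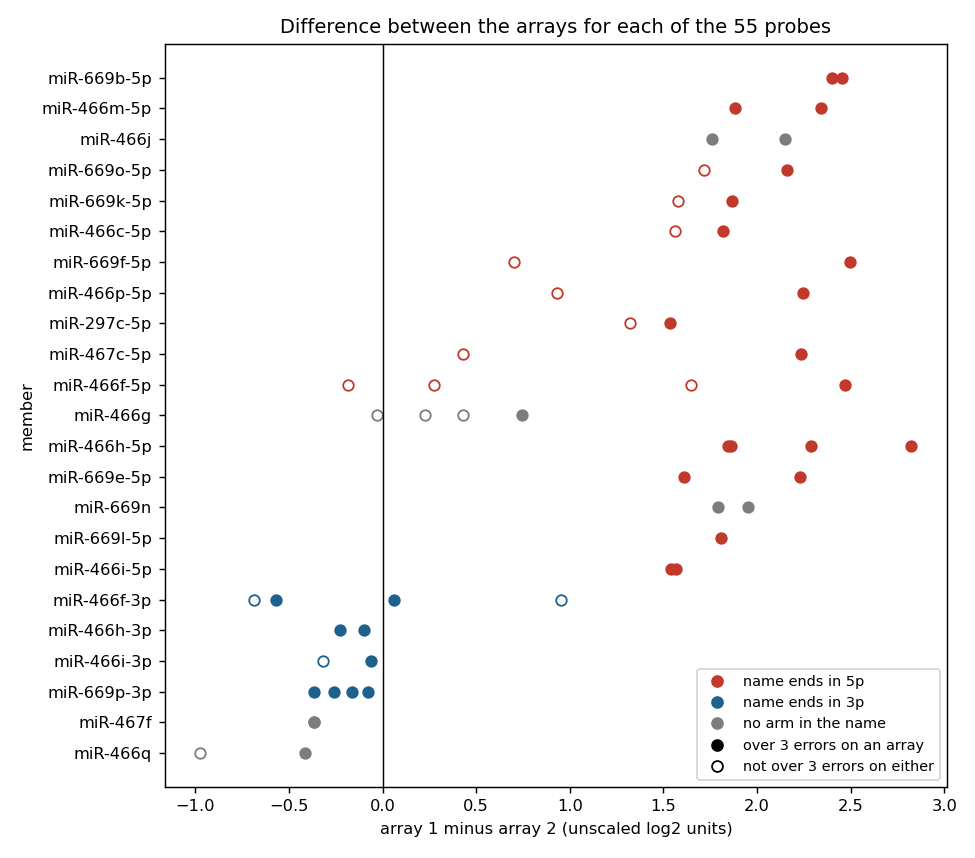
Difference between the arrays in unscaled log2 units (horizontal axis) for each of the 55 probes of the 23 members (vertical axis), filled where the probe exceeded 3 times its error on an array and open otherwise. Filled points of the 5 members brighter on array 1 lie between 1.54 and 2.82, and those of the 6 lowest members between -0.57 and 0.06.

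The mean signals of the 6 members brighter on array 2 spanned 2.59 to 4.23, and 93 other detected miRNAs lay in that range, with a median difference of 0.38. In that range the other 3p names had a median of 0.19 (44 names) and the other 5p names a median of 0.94 (31 names). Of the 93, 14% were brighter on array 2. miR-466h-5p, miR-669e-5p and the 6 lay at similar mean signals, as the plot of difference against brightness shows. The part of nearness to background in the small differences of the 6 was not tested.

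**Figure D4:**
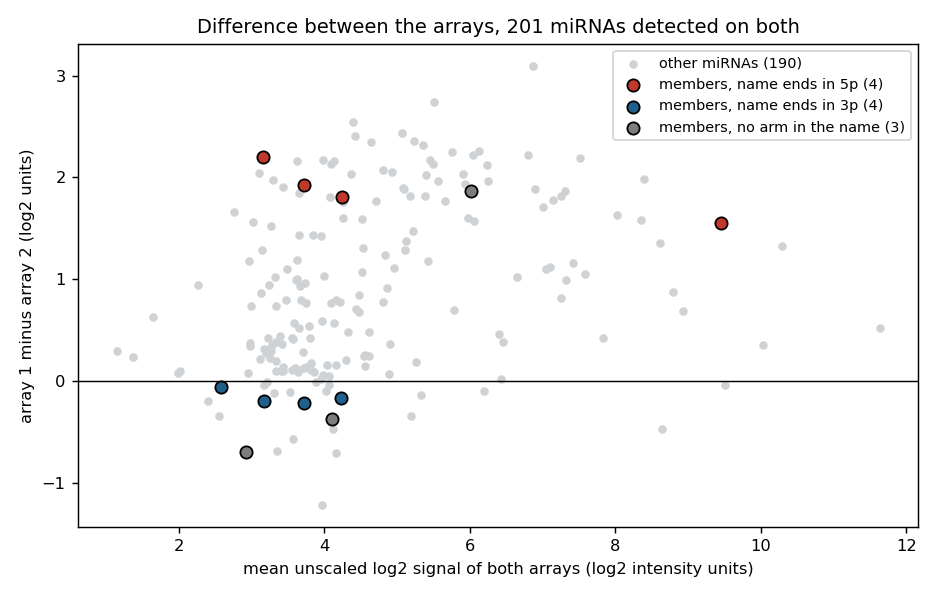
Difference between the arrays (vertical axis, unscaled log2 units) against the mean signal of both arrays (horizontal axis, log2 intensity units) for the 201 miRNAs detected on both, with the 11 members coloured by arm ending and the other 190 in grey. The 3p-ending members lie just under 0, from -0.22 to -0.06, and the 5p-ending members between 1.55 and 2.20.

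The 12 members detected on array 1 only were all brighter there. Of these, 10 end in 5p and 2, miR-466j and miR-466g, carry no arm. Selection by detection on array 1 alone favours a higher signal there, so their difference is a description. It ranged from 0.34 to 2.43 log2 units with a median of 1.64, and 11 of the 12 were over 2-fold brighter on array 1. The same share over all miRNAs detected on array 1 only was not computed, so whether this count is usual is not known. Over all miRNAs, array 1 detected 131 names ending in 5p and both arrays 76. For names ending in 3p these counts were 111 and 74. miR-669b-5p had a log2 signal of 4.14 on array 1 against 1.72 on array 2, miR-466m-5p had 5.10 and 2.99, and miR-466j, a U and G-rich strand from the 3p side of its hairpin, had 4.05 and 2.10. All probes of these 3 passed on array 1. miR-466m-5p came close on array 2, with a best probe at 2.86 times its error.

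The rest of the 12 were carried by 1 probe each on array 1. miR-669o-5p had log2 signals of 3.70 and 1.76, miR-466c-5p 3.68 and 1.99, and miR-669k-5p 3.51 and 1.79. miR-297c-5p, the sole detected miR-297 member, had 2.66 and 1.23, and miR-467c-5p had 2.41 and 1.08. miR-669f-5p had 2.33 and 0.73, miR-466p-5p had 2.21 and 0.62, and miR-466f-5p had 1.71 and 0.65. These last 5 lay below the negative-control limit on both arrays as means of log2 intensity over probes. By mean linear intensity, miR-297c-5p (7.56) and miR-467c-5p (8.44) lay above it on array 1. miR-466g, at 2.48 and 2.13, also lay below the limit on both arrays and had the smallest difference of the 12, 0.34.

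Hairpins with both arms on the array allow the strands of a shared precursor name to be set side by side. There were 18 such hairpins among the members. For miR-466h the difference between the arrays was 2.20 for the 5p strand and -0.16 for the 3p strand. For miR-466i it was 1.55 and -0.19. These were the pair of member hairpins with both strands detected on both arrays. Over all hairpins 10 had this, members included, and the 5p difference was the higher in 6 of them. Their 5p minus 3p ranged from -0.47 to 2.37. Outside the members, let-7b and miR-125a had 1.69 and 1.73. In 10 member hairpins the 5p strand was detected on array 1, namely miR-466f, miR-466h, miR-466i, miR-466m, miR-467c, miR-669b, miR-669e, miR-669f, miR-669k and miR-669l. In all 10 the 5p difference exceeded the 3p difference, by 1.11 to 2.43 log2 units. Choosing hairpins by 5p detection on array 1 favours this direction, since in 6 of them the 5p strand passed on array 1 only, so the count is a description. In the other 8 member hairpins, with no 5p detection on array 1, the 5p difference was the higher in 2 (25%), and the median of 5p minus 3p was -0.14. Among the 597 other hairpins with no 5p detection on array 1, the 5p difference was the higher in 282 (47.2%), with a median of -0.026.

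For most of these hairpins the 3p strand was near background. Its log2 signals were 0.20 on array 1 against 0.34 on array 2 for miR-669k-3p, 0.81 and 0.81 for miR-669b-3p, and 1.15 and 1.05 for miR-669e-3p. miR-669l-3p had 1.06 and 0.996, miR-467c-3p 1.08 and 1.26, miR-669f-3p 1.51 and 1.84, and miR-466m-3p 1.43 and 0.88. None of these 7 was detected on either array. In the 3 hairpins whose 3p strand was detected (miR-466f, miR-466h and miR-466i) the 3p difference was the lower by 1.11 to 2.37. For miR-466f, with the gap of 1.11, the 5p strand passed on array 1 only, through 1 of 4 probes. Its pair was therefore not detected on both arrays. Among the 705 other hairpins, the 3p strand was detected on array 1 in 95 and had the higher difference of its pair in 68 (71.6%). The 5p strand was detected on array 1 in 108 and had the higher difference in 91 (84.3%).

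The sequence contrast ran in parallel with the difference between the arrays, and also with brightness. The motifs were chosen after the values had been seen, and were searched on the strand of the mature RNA. GUGUGU occurred in 16 (0.995%) of the 1608 array names with a sequence, 3 of them members. Detected on both arrays were 5 of the 16, miR-669n and 4 that are no members, and all 5 were brighter on array 1, by 1.64 to 1.89 log2 units. Of all 201 miRNAs detected on both arrays, 175 were brighter on array 1, so this direction was the usual one. The 4 that are no members were these miRNAs, printed here because they share the repeat but not the families.
miR-574-5p: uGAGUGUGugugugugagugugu
miR-1187: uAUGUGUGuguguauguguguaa
miR-3082-5p: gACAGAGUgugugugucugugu
miR-32-3p: cAAUUUAGugugugugauauu
miR-32-3p, named after its values were seen, is a 3p strand and differed by 1.89, with log2 signals of 6.04 and 4.15. miR-574-5p had 8.84 on array 1 and 7.21 on array 2, miR-1187 had 7.86 and 6.15, and miR-3082-5p had 8.24 and 6.37.

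ACACAC occurred in 11 (0.684%) of the 1608 names, 4 of them members. Detected on both arrays were 3 of the 11, miR-466i-3p, miR-466q and miR-467f, all members and all brighter on array 2, by 0.19 to 0.69 log2 units. Of all detected miRNAs, 12.9% were brighter on array 2. These 3 strands were dim, with mean signals of 2.92 to 4.10, where the 5 detected GUGUGU strands had 5.10 to 8.02. The part of brightness in the contrast was not tested. The median difference over the 168 detected miRNAs with a sequence was 0.77. Of the 11 names, 8 were detected on neither array, and none on array 1 alone. A shared motif did not ensure detection. miR-466k, with GUGUGU, had log2 signals of 0.12 and 0.21, and miR-467g, with ACACAC, had 1.01 and 0.77. Neither was detected on either array. For 54 members no sequence was compared, so the contrast rests on few strands.

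Scaling changed which members looked repeatable. For scaling, the upper quartile of log2 signal among the 201 shared detections was taken as each array's reference, which removed 1.71 log2 units between the arrays. The 5 members brighter on array 1 then lay within 0.49 log2 units of each other on the 2 arrays, for instance miR-466i-5p at 9.45 ± 0.11 and miR-669n at 6.02 ± 0.11 (SD, n = 2). Over all 201 miRNAs detected on both arrays the median difference became -0.93, and the median SD between the arrays went from 0.55 to 0.67. The 6 others moved apart to -1.77 to -2.41, for instance miR-467f at 4.10 ± 1.47 and miR-466h-3p at 4.23 ± 1.33 (SD, n = 2). The gap between the sets, 1.61 log2 units, is the same before and after this scaling, which shifts all miRNAs of an array alike.

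The let-7 guide strands serve as a comparison from a family of other sequence and function, known as repressors of growth-promoting mRNAs. The 8 detected on both arrays differed by 1.89 to 2.44 log2 units. The 4 members ending in 5p differed by 1.55 to 2.20, which overlaps that range. The 4 ending in 3p, at -0.22 to -0.06, lay outside it, and closer to the spike-in controls at 0.06 to 0.17. These sets differ in brightness. The detected controls had log2 signals of 8.73 to 11.40, the 8 let-7 strands mean signals of 3.98 to 6.89 and the 4 members ending in 3p mean signals of 2.59 to 4.23. The part of brightness in this comparison was not tested.

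The 38 members detected on neither array had log2 signals of 0.10 to 1.76 on array 1 (median 0.64) and 0.14 to 2.14 on array 2 (median 0.68). Their best probe reached 2.15 times its error on array 1 and 2.48 on array 2. All lay below the negative-control limits. They include all names of miR-669a, known to restrain myogenic factors in cardiac progenitors. At these signals a low level was not detectable, which does not show that the strands were absent.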

How the data were processed

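Exosome RNA from 2 samples was read on one-colour Agilent mouse miRNA arrays, both on 1 slide and in 1 scan, per the file headers. The scanner output the authors deposited gives a linear intensity for every spot, reduced by a spatial background surface and not normalized between arrays, per the file headers. The submitters' processing notes name Agilent Feature Extraction, version 10.7.1.1. The scanner output also holds detection and outlier flags. A processed table, also deposited, is in log2 units with its normalization unstated in these sources, and served as an alternative only. The labels' protocols describe labelled cRNA and the file headers a miRNA scanning protocol, so the labelling is not settled.

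Intensities under 1 were set to 1, and log2 values were averaged over spots, then probes. The detection flag matched the rule of 3 times the error for all 61 members on both arrays. Sequences and loci came from RefSeq (GRCm38.p6); the array files name no build. Named are members detected on an array, their partner arms, listed comparison miRNAs and members with a sequence. Both sequence motifs, miR-32-3p, the let-7b and miR-125a hairpins and the embryonic stem cell names outside the list were chosen after values were seen. The members and lists were chosen with earlier results of these data known. Alternatives covered detection, background (normexp, offset 50), probes, outliers and scaling. Python 3.11.15, numpy 2.4.6, pandas 2.3.3, matplotlib 3.10.9, R 4.3.3 and limma 3.58.1 were used. The level and scaling steps were tested on 1881 simulated miRNAs, where the built-in differences were recovered in 3 of 3 sets. All simulated signals lay well above the floor of 1, and scaling there used unchanged miRNAs only. The simulation thus checks the arithmetic and cannot tell how the steps perform near background, where most members lie.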

Additional observations from a re-analysis of the deposited data

How the results depend on the processing

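The number of members detected on both arrays, 11, was 4 with the majority of spots well above background, 2 with probes over 6 times their error (3.28%, below the 4.52% of all miRNAs), 6 with every probe passing and 23 with detection on at least 1 array. It ranged from 11 to 23 over leaving out either array. For names ending in 5p the 4 became 1, 1, 2 and 14 under these settings and 2 with intensities over the negative controls by 3 SD, and leaving out an array gave 4 to 14. For names ending in 3p the 4 became 1, 0 and 2 under the first 3 settings. The median difference between the arrays over detected members, -0.06, was 1.59 with members detected on at least 1 array and 0.70 with the majority of spots above background. Scaling, quantile normalization and the authors' table, all chosen after seeing the data, gave -1.77, -0.95 and -0.98. They gave 0.15, 0.99 and 0.86 for 5p names (1.86 unscaled) and -1.89, -1.06 and -2.88 for 3p names (-0.18 unscaled). Normexp gave 0.41 for 5p and -0.0094 for 3p names, beside 0.20 over all detected miRNAs, and the 1 5p name left under the majority rule had 1.55. The lowest of the 5 members brighter on array 1 stayed above the highest of the other 6 in all 8 settings compared, by 0.31 (normexp) to 1.70 log2 units. Among the 8, the main setting defined the split and scaling shifts all miRNAs of an array alike. Those settings could not have altered it. Brighter on array 2 were 4 of these 6 under normexp and 5 of 6 by the brightest probe, and after scaling 4 of the 5 were brighter on array 1. The median scaled level of the 11 members, 3.73, became 6.23 with normexp and 2.56 in the authors' table. Levels of single members moved by over their SD between the arrays for all 11 with normexp. The same held for 9 in the authors' table and for 5 by the brightest probe. A difference between arrays could not be had from 1 array. Most members lay near the negative controls, so their calls are uncertain.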
